A study of Homo sapiens with 6 samples.

Results

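Heterogeneous nuclear ribonucleoproteins (hnRNPs) and the splicing regulators that work with them were followed in K562 cells treated overnight with an iron chelator. The group comprised 41 genes chosen by name: 22 genes that carry the HNRNP or PTBP name, and 19 genes of the MBNL, CELF, RBFOX, KH-domain, TIA, ELAV, TRA2, RBM39, FET, TARDBP and MATR3 group. All 41 were found among the 62251 genes of the annotation, and they accounted for 827 of the 252045 transcripts listed. K562 is an established erythroid leukemia line. The Chelator group had received 10 µM 21H7, a cell-permeable iron chelator, and the DMSO group the same volume of solvent; each group held 3 libraries of polyadenylated RNA read from both ends. The comparison addresses how messenger RNA abundance and isoform choice respond when cellular iron is bound by a chelator.

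The proteins encoded by these genes bind short motifs in nascent and mature transcripts, and they decide which exons and introns are kept. hnRNPs tend to repress exons, whereas TRA2 proteins activate them and MBNL, CELF, RBFOX and QKI proteins do either, depending on where they bind. Many of these genes control their own level through alternative exons or introns that bring in an early stop codon or a spliced 3′ untranslated region, and the transcripts that result are degraded by nonsense-mediated decay (NMD). Gene totals, the makeup of each total by transcript class, and the inclusion of single exons were therefore described in turn.

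The libraries held 78615500.1 to 90383641 estimated counts in DMSO and 85449857 to 101094957 in Chelator, of which the 41 genes took 1.84 to 1.86% in DMSO and 1.60 to 1.61% in Chelator. TFRC, the transferrin receptor whose messenger RNA is stabilized when iron is scarce, had 43071, 40145 and 54229 normalized counts in DMSO and 326284, 335336 and 355168 in Chelator, an increase of 2.89 ± 0.10 (SE) on the log2 scale (DESeq2 adjusted p = 2.88e-172). All 11 erythroid markers stood above 1 TPM in every library, and their summed level was 12606 to 13950 TPM in DMSO and 17671 to 18854 TPM in Chelator. The globin genes HBG1, HBG2, HBE1 and HBZ carried that sum, whereas KLF1 (77.8 to 87.4 TPM in DMSO, 47.7 to 52.9 TPM in Chelator), LMO2, NFE2, TAL1 and EPOR were lower in every Chelator library. Of 10 markers of other lineages, 5 stayed under 1 TPM in every library, MS4A1, CD8A and CDH5 at 0, and the sum of the list was 82.2 to 83.8 TPM in DMSO and 92.0 to 98.1 TPM in Chelator, in which CD3D went from 10.0 to 16.2 TPM to 38.9 to 40.7 TPM and EPCAM from 62.3 to 68.8 TPM to 45.6 to 50.3 TPM. The part of these marker levels in the results below was not tested, and in bulk RNA fewer cells of a type and less RNA per cell cannot be told apart. Fragments were shorter in Chelator. Nominal exceeded effective transcript length, a gap that follows mean fragment length, by a median of 257, 264 and 252 bases in the DMSO libraries but of 218, 207 and 200 bases in those of Chelator, with no overlap. In any result that depends on how reads were divided among transcripts, treatment and fragment length cannot be told apart.

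Upon iron chelation, most members were lower. At an adjusted p under 0.05, 24 of 41 members fell (58.5%, against 18.3% of 24541 genes with an adjusted p) and 2 rose (4.88%, against 19.5%), while 15 did not pass. The changes were modest. No member passed the additional threshold of a doubling or halving, which 2.6% of all genes passed downward and 8.18% upward. The count of 0 was the same at an unadjusted p under 0.05, and edgeR placed 1 member, MBNL2, past that threshold. The log2 fold change was negative for 35 of 41 members (85.4%, against 49.1% of all genes tested), and its median was −0.25 in the members and 0.02 over all genes. Most of these genes are strongly expressed, and strongly expressed genes leaned in the same direction: of the 2015 genes with a mean of at least 10000 normalized counts, 44.9% fell and 22.8% rose, with a median of −0.13, and 20 of the 31 members in that range fell while 1 rose. For 23 of the 24 genes that fell, all 3 Chelator libraries lay below all 3 DMSO libraries; the exception was PTBP3. The same held for 97.4% of all 4485 genes that fell.

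**Figure D1:**
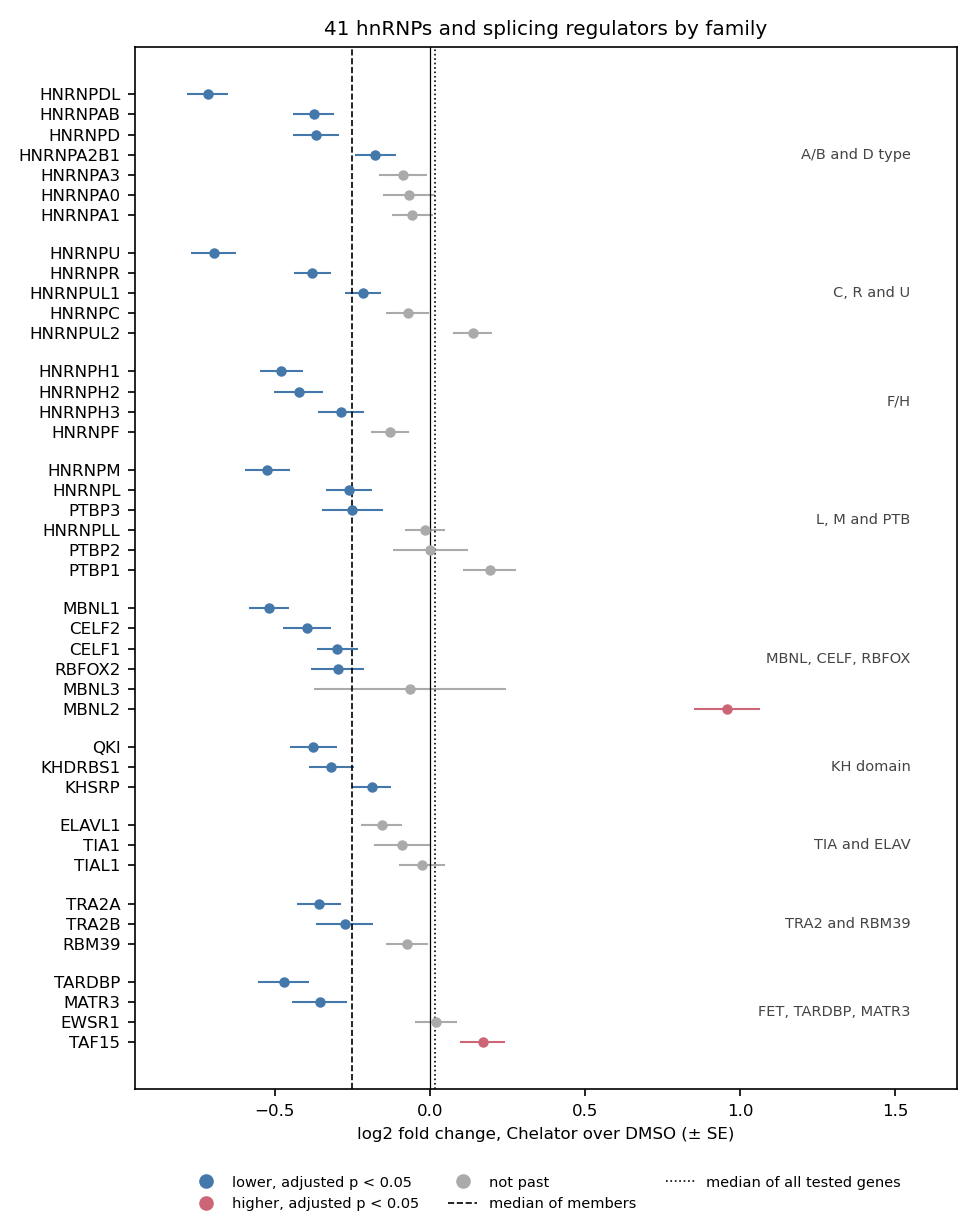
Log2 fold change, Chelator against DMSO, of the 41 members grouped by family, with bars of 1 SE from DESeq2, colours for the call, and dashed and dotted lines at the median of the members and of all genes. The estimates run from −0.72 for HNRNPDL to 0.96 for MBNL2, and 35 of 41 lie left of 0.

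Among the 7 genes of the A/B and D family, which bind purine-rich and AU-rich sequences, 4 fell and 3 did not pass, with a median log2 fold change of −0.18. HNRNPDL (ENSG00000152795.18, chr4:82422565-82430462, minus strand, hg38), the hnRNP D-like protein, had 20499, 18742 and 20185 normalized counts in DMSO and 12008, 12094 and 12086 in Chelator. All Chelator libraries were well below all DMSO libraries, and the fall of 0.72 ± 0.07 on the log2 scale was the largest of the group (adjusted p = 9.75e-26). Per length, its mean level went from 214 to 133 TPM. HNRNPAB and HNRNPD, which also bind AU-rich elements, fell by 0.37 each (adjusted p = 9.13e-08 and 5.07e-06). HNRNPA2B1, a reader of UAG-containing motifs, had 137803, 129121 and 137785 normalized counts in DMSO and 116009, 116728 and 125659 in Chelator. Its groups were close but separate, the fall was 0.18 ± 0.07 (adjusted p = 0.0243), and the call was lost without DMSO library 1 or 3 or Chelator library 1 or 2 (adjusted p from 0.0628 to 0.0975) and in edgeR (0.106).

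HNRNPA1 (ENSG00000135486.19, chr12:54280193-54287088, plus strand), a repressor of exons and the member with the highest level per length, stood at a mean of 2728 TPM in DMSO and 2675 TPM in Chelator. It had 234040, 215515 and 222602 normalized counts in DMSO and 224957, 206586 and 214827 in Chelator. The groups overlapped, and the log2 fold change of −0.06 ± 0.07 did not pass (adjusted p = 0.564). HNRNPA3 and HNRNPA0 were likewise not past the threshold, at −0.09 and −0.07, although HNRNPA3 was called lower without the length offset (−0.28, adjusted p = 1.97e-05) and without DMSO library 2 (−0.16, adjusted p = 0.0117). HNRNPA3 shares 58.8% of its 31-base words with other expressed genes and HNRNPA1 32.1%, against a median of 0.047% over the 41 members. The expressed gene that shared most with HNRNPA1, HNRNPA1L3, stood at a mean of 4.44 TPM, and with pseudogenes and readthrough genes added HNRNPA1 was at −0.06 and HNRNPA3 was at −0.08. For HNRNPA3 the expressed gene that shared most was NFE2L2, at a mean of 44.6 TPM, which that addition did not include.

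Of the 5 genes of the C, R and U group, 3 fell and 2 did not pass. HNRNPU (ENSG00000153187.21, chr1:244840638-244864560, minus strand), also known as scaffold attachment factor A, had 136894, 134526 and 139765 normalized counts in DMSO and 91981, 80163 and 81543 in Chelator. The highest Chelator library was far below the lowest DMSO library, a fall of 0.70 ± 0.07 on the log2 scale (adjusted p = 2.69e-20), from 613 to 385 TPM. HNRNPR fell by 0.38 (adjusted p = 2.03e-09) and HNRNPUL1, a relative of HNRNPU, by 0.22 (adjusted p = 9.32e-04). HNRNPUL2 stood on the other side of 0, at 0.14 ± 0.06, with Chelator libraries all above DMSO libraries but an adjusted p of 0.0633. It was called higher in edgeR (adjusted p = 0.0225), with readthrough genes added (adjusted p = 0.0179) and without Chelator library 2 (adjusted p = 0.0281), and it shares 45.5% of its 31-base words with other expressed genes, among them the readthrough HNRNPUL2-BSCL2. HNRNPC, which covers uridine tracts and keeps cryptic exons out, had 75844, 66543 and 72825 normalized counts in DMSO and 69203, 67576 and 68139 in Chelator. The Chelator libraries lay inside the range of DMSO, with a log2 fold change of −0.07 ± 0.07 (adjusted p = 0.474).

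The F/H family, which binds runs of guanines, had 3 of 4 members lower and a median of −0.35. HNRNPH1 (ENSG00000169045.19, chr5:179614178-179634784, minus strand) had 62184, 60455 and 65843 normalized counts in DMSO and 47604, 42627 and 45082 in Chelator. The groups were separate, and the fall was 0.48 ± 0.07 (adjusted p = 1.49e-10). HNRNPH3 fell by 0.29 (adjusted p = 5.34e-04), and HNRNPF, at −0.13, did not pass (adjusted p = 0.0877) although its groups did not overlap. HNRNPF was called lower without the length offset, centred on the mean log2 count, in coding transcripts alone and without DMSO library 2 (adjusted p from 0.00526 to 0.0181). HNRNPH2 (chrX:101408222-101414133, plus strand) had 7412, 7147 and 7161 normalized counts in DMSO and 5857, 5018 and 5330 in Chelator, a fall of 0.42 ± 0.08 (adjusted p = 7.98e-07). The gene overlaps a readthrough locus, RPL36A-HNRNPH2, whose short transcript RPL36A-HNRNPH2-201 received 0, 0 and 26.8 estimated counts in DMSO and 4242, 5317 and 7035 in Chelator. This transcript was near absent in DMSO and abundant in all Chelator libraries, and with pseudogenes and readthrough genes added to their parents HNRNPH2 turned to a rise of 2.18 (adjusted p = 3.56e-58). The direction for HNRNPH2 thus rests on which transcripts are counted as its own.

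In the L, M and PTB group, 3 of 6 members fell and 3 did not pass. HNRNPM (ENSG00000099783.13, chr19:8444767-8489114, plus strand), which binds GU-rich sequences, had 78946, 75530 and 85052 normalized counts in DMSO and 56527, 52216 and 57899 in Chelator. The groups were far apart, with a fall of 0.52 ± 0.07 (adjusted p = 1.76e-11). HNRNPL, a binder of CA repeats, fell by 0.26 (adjusted p = 0.00159), and its paralog HNRNPLL was at −0.02 (adjusted p = 0.887). PTBP1 (ENSG00000011304.22, chr19:797075-812327, plus strand), the polypyrimidine tract-binding protein, had 71136, 62117 and 73526 normalized counts in DMSO and 73317, 78453 and 84655 in Chelator. The lowest Chelator library lay just under the highest DMSO library, and the log2 fold change of 0.19 ± 0.09 did not pass (adjusted p = 0.0599). For PTBP1 the model of transcript length decided the direction: when that offset was left out, PTBP1 stood at −0.31 on the log2 scale (adjusted p = 1.28e-05). It was called higher in edgeR (0.24, adjusted p = 0.029), without DMSO library 3 (adjusted p = 0.0463) and without Chelator library 1 (adjusted p = 0.0178). PTBP2, the neuronal paralog, had 757, 915 and 824 normalized counts in DMSO and 783, 873 and 842 in Chelator, with no separation of the groups (0.00, adjusted p = 0.995). PTBP3 had 32004, 35230 and 36438 in DMSO and 33572, 27365 and 26269 in Chelator, where the first Chelator library lay among those of DMSO. Its fall of 0.25 ± 0.10 passed (adjusted p = 0.0306) and was lost without DMSO library 2 or 3 or Chelator library 2 or 3 (adjusted p from 0.0849 to 0.219) and in edgeR (0.118).

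The MBNL, CELF and RBFOX group moved both ways: 4 of 6 fell, 1 rose and 1 did not pass. MBNL1 (ENSG00000152601.18, chr3:152243828-152465780, plus strand), a muscleblind protein that binds YGCY motifs and drives adult splicing patterns, had 26071, 27613 and 27082 normalized counts in DMSO and 19516, 18311 and 18596 in Chelator. All Chelator libraries were lower, by 0.52 ± 0.06 on the log2 scale (adjusted p = 1.26e-14). Its paralog MBNL2 (ENSG00000139793.21, chr13:97221434-97394120, plus strand) had 2212, 2598 and 2588 in DMSO and 5461, 4420 and 4499 in Chelator. Every Chelator library was well above every DMSO library, and the rise of 0.96 ± 0.11 (adjusted p = 5.48e-18), from 11.6 to 22.8 TPM, was the largest change of the 41. MBNL3 was hardly expressed, with 128, 83 and 88 normalized counts in DMSO and 95, 113 and 77 in Chelator, and a change could not be resolved at that depth (−0.06 ± 0.31). CELF2 fell by 0.39 (adjusted p = 2.57e-06), CELF1, which binds GU-rich elements, by 0.30 (adjusted p = 4.03e-05), and RBFOX2, which reads UGCAUG, by 0.30 (adjusted p = 0.002).

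**Figure D2:**
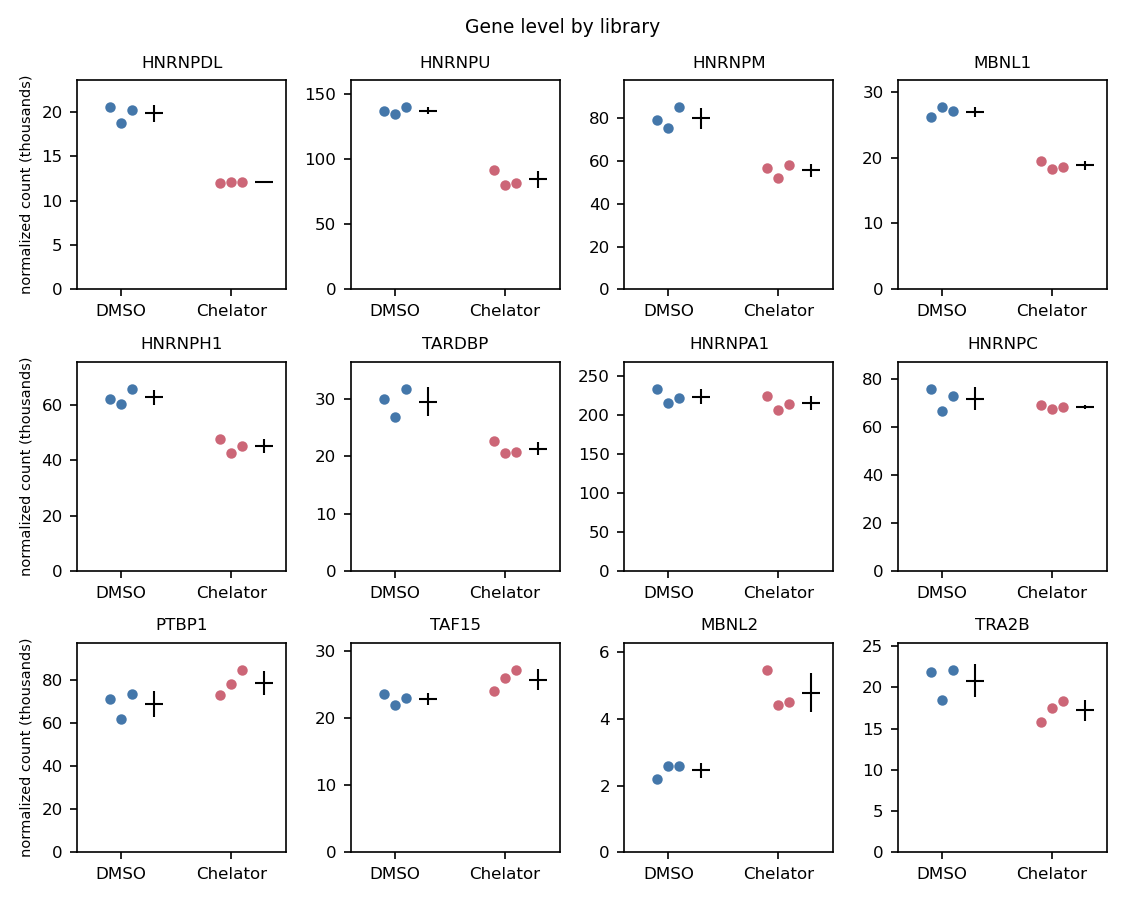
Normalized counts in units of 1000, by library, of 12 members, with points for the 3 DMSO and 3 Chelator libraries and bars for the mean and SD. HNRNPDL, HNRNPU, HNRNPM, MBNL1, HNRNPH1 and TARDBP are lower in every Chelator library, MBNL2 is higher in every one, and HNRNPA1 and HNRNPC overlap between groups.

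All 3 KH-domain members fell. QKI (ENSG00000112531.17, chr6:163414000-163578592, plus strand), a regulator of splicing and of circular RNA formation, had 25146, 25194 and 24867 normalized counts in DMSO and 21224, 18264 and 18501 in Chelator. The groups were separate, with a fall of 0.38 ± 0.08 (adjusted p = 5.45e-06). KHDRBS1, which encodes Sam68, fell by 0.32 (adjusted p = 6.25e-05), and KHSRP, a splicing factor that also promotes decay of AU-rich messages, by 0.19 (adjusted p = 0.00883), a call that edgeR did not make (adjusted p = 0.0646). The 3 TIA and ELAV members, which bind uridine-rich sequences, were not called in the comparison as fitted for all members (at an unadjusted p under 0.05, ELAVL1 alone passed). TIA1 had 5249, 4636 and 4740 normalized counts in DMSO and 4112, 4968 and 4680 in Chelator, with overlapping groups (−0.09 ± 0.09, adjusted p = 0.512). TIAL1 was at −0.02, and ELAVL1, a stabilizer of AU-rich messages, was at −0.15 with separate groups but an adjusted p of 0.0532. In edgeR, 0 of the 3 passed as well, but without the length offset all 3 were called lower, TIA1 at −0.41 (adjusted p = 1.15e-08), TIAL1 at −0.20 (adjusted p = 0.00414) and ELAVL1 at −0.17 (adjusted p = 0.0158). ELAVL1 was also called lower at the stricter filter, with transcripts of at least 500 bases, centred on the mean log2 count, and without DMSO library 2 or Chelator library 3 (adjusted p from 0.00334 to 0.0484). In coding transcripts alone, TIA1 (−0.16, adjusted p = 0.0465) and TIAL1 (−0.62, adjusted p = 1.15e-07) were called lower.

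Of the TRA2 proteins and RBM39, 2 of 3 fell. TRA2A (ENSG00000164548.12, chr7:23504780-23532041, minus strand), which activates exons through GAA-rich enhancers, had 6889, 6814 and 6407 normalized counts in DMSO and 5106, 5279 and 5318 in Chelator. Every Chelator library was lower, by 0.36 ± 0.07 (adjusted p = 2.31e-06). TRA2B (ENSG00000136527.19, chr3:185914558-185938103, minus strand) had 21879, 18455 and 22053 in DMSO and 15743, 17515 and 18308 in Chelator. The groups were only just separate, and the fall of 0.27 ± 0.09 (adjusted p = 0.0083) was lost without DMSO library 1 or 3 or Chelator library 1 (adjusted p from 0.0615 to 0.0838). RBM39, a U2AF-related splicing factor, had 17392, 15741 and 17270 in DMSO and 15758, 15973 and 16163 in Chelator, with overlapping groups (−0.07 ± 0.07, adjusted p = 0.442).

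The last family held 4 genes. TARDBP (ENSG00000120948.19, chr1:11012344-11030528, plus strand), which binds UG repeats, had 30035, 26894 and 31824 normalized counts in DMSO and 22638, 20559 and 20831 in Chelator. The groups were separate, with a fall of 0.47 ± 0.08 (adjusted p = 5.71e-08). MATR3, a nuclear matrix protein, had 38546, 39189 and 39702 in DMSO and 34720, 27731 and 29347 in Chelator, a fall of 0.36 ± 0.09 (adjusted p = 2.23e-04). TAF15, of the FET family, had 23692, 21969 and 23059 normalized counts in DMSO and 24117, 26057 and 27164 in Chelator, a rise of 0.17 ± 0.07 (adjusted p = 0.0476). Its groups were separate, but the call was lost without any library other than Chelator library 1 (adjusted p from 0.0509 to 0.192), without a filter on low counts (0.0563) and centred on the mean log2 count (0.587). EWSR1, of the same family, was at 0.02 (adjusted p = 0.859).

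With the gene sums restricted to transcripts annotated as protein coding, an alternative added after the data had been seen, 27 members fell and 3 rose, and 22 of the 24 genes that had fallen were among the 27, all but HNRNPA2B1 and HNRNPUL1 (adjusted p = 0.721 and 0.0644). Over all genes in that fit, 26.4% fell and 26.8% rose. Some members stood at clearly different values in both sums. HNRNPA1 went from −0.06 to −0.35, TIAL1 from −0.02 to −0.62, TRA2A from −0.36 to −0.58, TRA2B from −0.27 to −0.48, HNRNPH1 from −0.48 to −0.65 and RBM39 from −0.07 to −0.22. The coding transcripts of HNRNPA1 did not move together, as described below: some nearly left the gene's total while another rose in TPM. In these sums too, treatment and fragment length cannot be told apart. HNRNPA2B1 and HNRNPC stood at 0.04 and 0.06 in coding transcripts alone, so that the fall of HNRNPA2B1 turned direction and did not pass. The 3 genes that rose in coding transcripts were MBNL2 (1.01), TAF15 (0.25) and HNRNPUL2 (0.17).

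A list of 51 other RNA-binding splicing regulators, kept apart from the 41, had calls in both directions. Of these, 44 had an adjusted p: 10 rose, 9 fell and 25 did not pass, with a median log2 fold change of 0.05. Over all genes with an adjusted p, 19.5% rose and 18.3% fell, with a median of 0.02, so the list was called about as often as genes at large. SYNCRIP, the closest relative of HNRNPR, fell by 0.78 (adjusted p = 5.05e-31) and MSI2 by 0.39. The paraspeckle protein PSPC1 rose by 0.45, RALY, a relative of HNRNPC, by 0.44 and FXR2 by 0.57 (adjusted p = 8.47e-14). Past the doubling threshold were 2 weakly expressed genes, SRRM3, with a mean of 0.472 TPM in DMSO and 1.09 TPM in Chelator, and MSI1, with 0.039 and 0.167 TPM. Both were higher in Chelator, and over all genes 8.18% passed that threshold upward.

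Transcripts of each gene were next grouped by annotated class (coding, NMD, retained intron, and transcripts with no coding sequence defined), and the share of each class in the gene's TPM was compared between groups with edgeR's diffSpliceDGE. In 37 members, 110 classes could be tested and 5 were called at an adjusted p under 0.05 with a shift of over 5 percentage points, all of them upward and none coding. Among NMD classes, 3 of 24 rose (2.85% of NMD classes over all genes) and 0 fell (0.362%), with a median shift of 0.86 points in the members and 0.67 points over all genes. Retained-intron classes gave 1 of 30 higher (2.43%) and 0 lower (0.361%), with medians of 0.65 and 0.66 points. Classes without a defined coding sequence gave 1 of 19 higher (2.44%) and 0 lower (0.776%). Of 37 coding classes none was called in either direction (0.201% higher and 0.313% lower over all genes), although the median shift was −1.20 points in the members and −1.35 points over all genes, and 9 coding classes were lower by over 5 points (27.5% over all genes). At an unadjusted p under 0.05 with a shift of over 5 points, 3 classes were lower (1.96% of 25116 classes over all genes), of which 2 were coding, and 7 were higher (4.42% over all genes). By limma's diffSplice, 10 classes were called lower (5.61% over all genes) and 10 higher (5.47%). The edgeR test sets each class against its gene's average change. Whether it calls a class that makes up most of a gene less often was not tested.

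**Figure D3:**
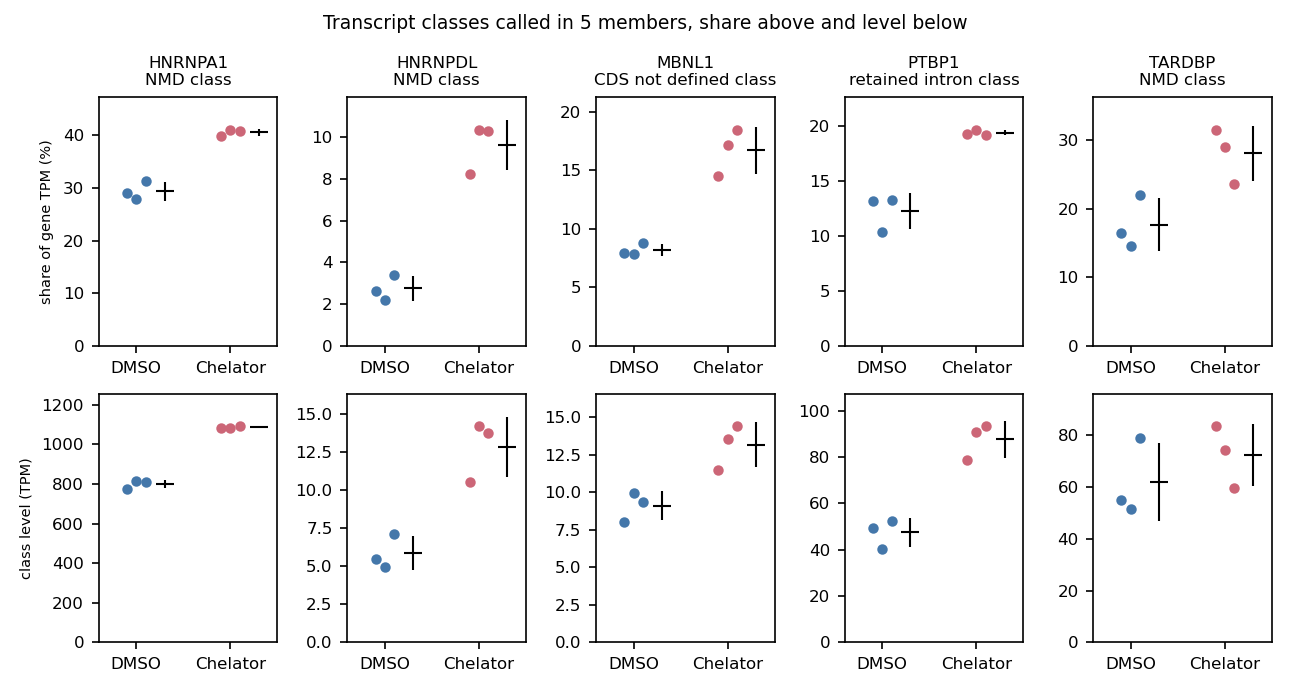
Share of gene TPM in percent (upper panels) and level in TPM (lower panels), by library, for the 5 transcript classes called in members, with bars for the mean and SD of the 3 libraries of a group. Each share is higher in every Chelator library than in any DMSO library, and the TPM of the HNRNPA1, HNRNPDL, MBNL1 and PTBP1 classes is too.

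The NMD class of HNRNPDL made up 2.65, 2.20 and 3.42% of the gene in DMSO and 8.21, 10.3 and 10.3% in Chelator. The groups were far apart (2.76 ± 0.615% against 9.61 ± 1.21%, SD, n = 3, edgeR adjusted p = 8.57e-05), and the call held in all 6 fits that left out 1 library. The class also rose in level, from 4.98 to 7.12 TPM in DMSO to 10.6 to 14.2 TPM in Chelator, while the gene as a whole fell. Most of it was HNRNPDL-203, at 4.98 to 5.79 TPM in DMSO and 4.96 to 8.25 TPM in Chelator, and HNRNPDL-202, listed at 0 in every DMSO library and at 5.25, 4.59 and 5.16 TPM in Chelator. Both transcripts end their coding sequence at the same base as the canonical transcript and splice out an intron further downstream, with the last junction 130 bases after that base.

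HNRNPA1 showed the same arrangement. Its NMD class held 29.0, 27.9 and 31.3% of the gene in DMSO and 39.8, 41.0 and 40.9% in Chelator, with no overlap (29.4 ± 1.77% against 40.6 ± 0.642%, edgeR adjusted p = 0.0353). Nearly all of it was HNRNPA1-205, at 771 to 811 TPM in DMSO and 1070.3 to 1078 TPM in Chelator. That transcript ends its coding sequence at the same base as the canonical transcript, with its last junction 78 bases after that base. The call for the class was fragile: it passed without Chelator library 1 and was lost when any of the other 5 libraries was left out.

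The NMD class of TARDBP rose from 16.5, 14.5 and 22.0% in DMSO to 31.4, 29.0 and 23.6% in Chelator. The third libraries of both groups lay close to each other (17.7 ± 3.89% against 28.0 ± 3.99%, edgeR adjusted p = 0.0155), and in TPM the groups overlapped, at 51.4 to 79.0 in DMSO and 59.5 to 83.4 in Chelator. The call held only when DMSO library 3 or Chelator library 3 was left out. TARDBP-203 carried most of the shift, from 11.2, 9.96 and 13.9% to 20.7, 22.4 and 19.9% of the gene, and the short transcript TARDBP-219, without a defined coding sequence, fell from 127 to 140 TPM in DMSO to 65.8 to 72.7 TPM in Chelator.

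The retained-intron class of PTBP1 held 13.2, 10.4 and 13.3% in DMSO and 19.3, 19.6 and 19.2% in Chelator. The Chelator libraries were nearly identical and all higher (12.3 ± 1.64% against 19.4 ± 0.233%, edgeR adjusted p = 0.00473), at 40.4 to 52.4 TPM against 78.6 to 93.3 TPM, and the call was lost without Chelator library 2 (adjusted p = 0.0557). For MBNL1, transcripts without a defined coding sequence went from 7.97, 7.86 and 8.80% to 14.5, 17.1 and 18.4% of the gene. The groups were separate (8.21 ± 0.516% against 16.7 ± 2.02%, edgeR adjusted p = 2.34e-05), and the call held in all 6 fits that left out 1 library.

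Several further shifts, chosen after their values were seen, separated the libraries but did not pass the call. The coding class of TRA2A, the largest of the gene, was 87.5, 84.5 and 88.4% in DMSO and 75.4, 69.5 and 69.7% in Chelator. Its retained-intron class was 6.40, 9.47 and 6.65% in DMSO and 12.6, 18.9 and 15.6% in Chelator (edgeR adjusted p = 0.10). TIAL1 had a coding share of 44.1, 34.5 and 35.0% in DMSO and 28.3, 23.6 and 20.2% in Chelator. Both coding shares were lower in every Chelator library than in any DMSO library, and the retained-intron share of TRA2A was higher. HNRNPA2B1 went the other way: its retained-intron share was 10.7, 11.5 and 11.3% in DMSO and 9.22, 5.68 and 6.02% in Chelator, where the test passed (adjusted p = 0.00517) but the shift was under 5 points. The NMD class of HNRNPU was lower as well, at 43.6, 45.5 and 44.3% in DMSO and 37.8, 38.3 and 36.0% in Chelator, with no overlap. Its test passed in limma's diffSplice (adjusted p = 0.00614) and with rounded estimated counts (adjusted p = 0.0343) but not in edgeR on scaled counts (adjusted p = 1). The NMD label covers unlike structures: of the 35 NMD-class transcripts with at least 1% of a member, 9 ended at the canonical stop codon and 26 elsewhere.

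At the level of single transcripts, 11 of 537 tested in members were called, 6 with a larger share (0.735% of 80791 transcripts over all genes) and 5 with a smaller one (0.251%). Of the 11, 5 were shorter than 1000 bases. HNRNPA1-206 (530 bases, coding) held 17.0, 19.1 and 11.9% of HNRNPA1 in DMSO and 0.517, 0.0557 and 0.128% in Chelator (edgeR adjusted p = 9.69e-24). HNRNPA1-250 (2067 bases, coding) held 14.0, 16.3 and 12.2% in DMSO and 3.69, 1.48 and 0.794% in Chelator (edgeR adjusted p = 1.22e-09). Both nearly left the gene's total upon treatment, whereas the coding HNRNPA1-201 (1294 bases) went from 764 to 789 TPM to 856 to 933 TPM. HNRNPC-225 (1156 bases, coding) was close to absent in DMSO, at 0.296 to 1.32 TPM, and reached 46.2 to 56.9 TPM in Chelator, 5.46, 6.44 and 6.62% of HNRNPC (edgeR adjusted p = 7.07e-14). PTBP1-213 (749 bases, coding) rose from 5.15, 1.04 and 8.72% to 18.3, 23.4 and 27.0% of PTBP1 (edgeR adjusted p = 5.18e-07). These 4 calls held in all 6 fits that left out 1 library.

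**Figure D4:**
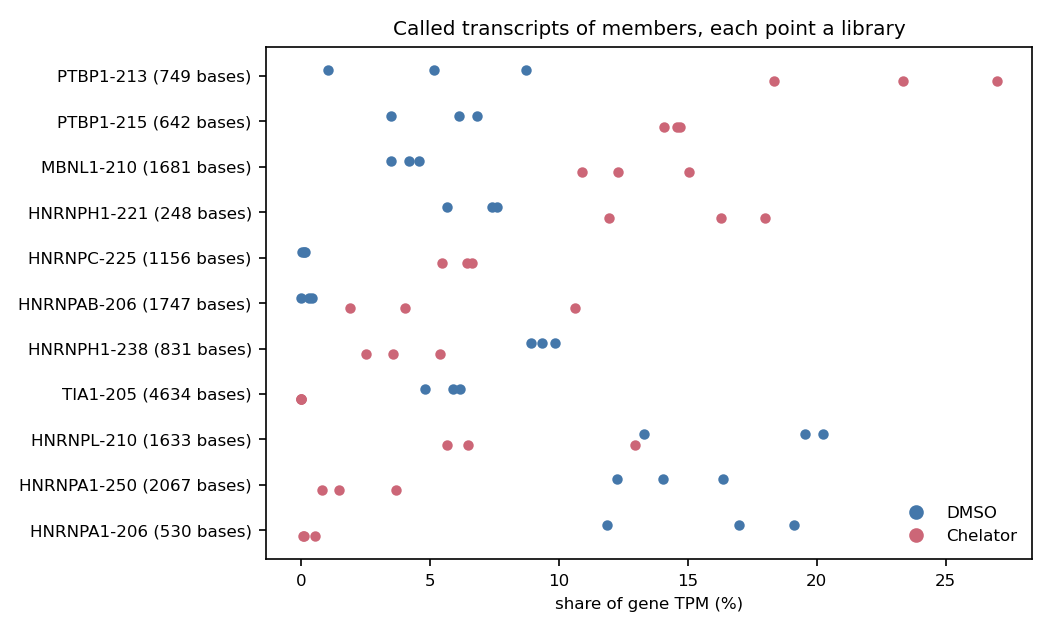
Share of gene TPM in percent, by library, for the 11 member transcripts called between groups, with 1 point a library. HNRNPA1-206 and HNRNPA1-250 are near 0 in Chelator, HNRNPC-225 is near 0 in DMSO, and no transcript of the 11 overlaps between groups.

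Of the other 7 calls, 6 were lost without Chelator library 3 (adjusted p from 0.0834 to 0.426) and each also without at least 1 other library, and TIA1-205 could not be tested with a DMSO library left out. PTBP1-215 (642 bases, retained intron) rose from 6.14, 3.48 and 6.80% to 14.1, 14.7 and 14.6%, MBNL1-210 (1681 bases) from 3.50, 4.18 and 4.56% to 10.9, 12.3 and 15%, and HNRNPH1-221 (248 bases, retained intron) from 7.40, 5.65 and 7.61% to 11.9, 18.0 and 16.3%. HNRNPAB-206 (1747 bases) rose from 0, 0.307 and 0.416% to 1.89, 4.02 and 10.6%, a wide spread in Chelator. Lower were HNRNPH1-238 (831 bases, NMD), HNRNPL-210 (1633 bases) and TIA1-205 (4634 bases). TIA1-205 held 6.15, 5.88 and 4.80% of TIA1 in DMSO and was listed at 0 in Chelator, while TIA1-203, only 1 base shorter at 4633 bases, was at 9.18 to 11.1 TPM in DMSO and 7.05 to 8.26 TPM in Chelator. The canonical transcript of the gene could be tested in 33 members, MATR3 left out since it has more than 1. Its share was lower in 25 (63.6% of 10864 canonical transcripts over all genes), with all Chelator libraries below all DMSO libraries in 15 (27.2%) and above them in 2 (10.9%), and the median shift was −2.29 points in the members and −1.55 points over all genes. PTBP1-203, the canonical PTBP1 transcript, held 40.2, 44.9 and 40.4% in DMSO and 27.9, 23.8 and 24.2% in Chelator, in TPM 151 to 175 against 110 to 117. PTBP1-203 was therefore lower in every Chelator library while the gene sum was not, although its own test did not pass (adjusted p = 0.382). The sum of the coding transcripts of PTBP1 did not fall with it, at 323 to 344 TPM in DMSO and 323 to 387 TPM in Chelator. In coding transcripts alone, the log2 fold change of PTBP1 was 0.12 and did not pass (DESeq2 adjusted p = 0.179).

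**Figure D5:**
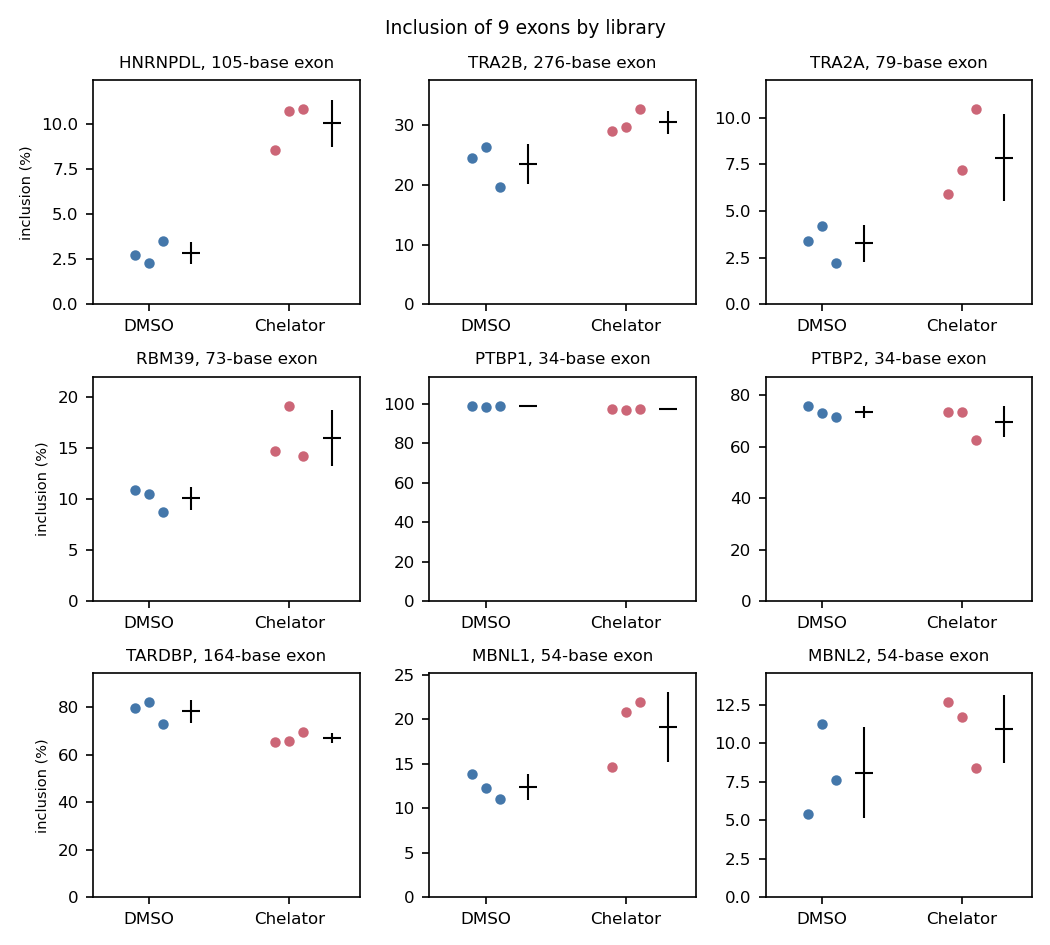
Inclusion in percent, by library, of 9 alternative exons in members, with bars for the mean and SD of 3 libraries. For an exon with several pairs of neighbouring exons, the pair with the highest mean TPM is shown. The 105-base exon of HNRNPDL and the exons of TRA2A and RBM39 are higher in every Chelator library, the 164-base exon of TARDBP is lower, and PTBP2 and MBNL2 overlap between groups.

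Inclusion of single exons was computed from the TPM of transcripts that contain or skip each exon between a given pair of neighbouring exons. Each such combination is an event, and an exon with several pairs of neighbours counts as several events. In 36 members, 210 events could be tested with limma. Only 2 were called at an adjusted p under 0.05 with a shift of over 5 points, 1 toward more inclusion (0.177% of 32779 events over all genes) and 1 toward less (0.18%). At an unadjusted p under 0.05, 61 passed (18.7% of all events tested), and 49 moved by over 5 points whatever their p (26.7%). The 105-base exon of HNRNPDL at chr4:82425563-82425667, in the 3′ untranslated region, was included at 2.73, 2.27 and 3.50% in DMSO and 8.53, 10.7 and 10.8% in Chelator. The groups were separate (2.83 ± 0.619% against 10.0 ± 1.29%, limma adjusted p = 0.0483), but leaving out any 1 of the 6 libraries lost the call. A 444-base exon of HNRNPA2B1 at chr7:26193251-26193694 went from 100% in all DMSO libraries to 93.3, 78.0 and 74.0% (limma adjusted p = 0.0256), on a mean of 0.912 TPM, and this call was likewise lost whichever library was left out.

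The exons that follow did not pass the adjusted test. They were chosen after their values were seen, as regulated exons of these genes, and their values are given as description. TRA2B carries a 276-base exon with early stop codons, the first of which ends the reading frame within the sequence printed here from the 5′ end of the exon, in lower case up to the stop codon in capitals (hg38, chr3:185931772-185931852, minus strand):
TRA2B exon to its stop codon: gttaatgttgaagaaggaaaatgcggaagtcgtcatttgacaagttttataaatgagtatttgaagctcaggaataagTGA
Its inclusion was 24.4, 26.3 and 19.7% in DMSO and 29.0, 29.6 and 32.6% in Chelator. All Chelator libraries were higher, by little more than the spread of the DMSO group (limma adjusted p = 0.324).

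TRA2A has an alternative exon of 79 bases, printed in capitals with 10 flanking bases on each side in lower case (chr7:23522344-23522442, minus strand):
TRA2A exon: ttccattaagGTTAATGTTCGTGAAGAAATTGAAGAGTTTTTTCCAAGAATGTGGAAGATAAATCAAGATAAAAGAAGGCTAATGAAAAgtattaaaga
It was included at 3.37, 4.23 and 2.21% in DMSO and 5.92, 7.21 and 10.5% in Chelator. A longer form of 312 bases went from 3.11, 1.40 and 2.27% to 7.01, 5.90 and 6.35%. Both forms were higher in every Chelator library (limma adjusted p = 0.157 and 0.104). RBM39 has a 73-base exon, printed from its 5′ end to the stop codon in capitals (chr20:35740526-35740597, minus strand):
RBM39 exon to its stop codon: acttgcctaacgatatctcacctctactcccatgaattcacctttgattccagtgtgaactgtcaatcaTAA
This exon was included at 10.9, 10.5 and 8.75% in DMSO and 14.7, 19.1 and 14.2% in Chelator, again without overlap (limma adjusted p = 0.206).

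PTBP1 and PTBP2 share a 34-base exon whose skipping shifts the reading frame, shown because the paralogs can be compared base by base (exon in capitals, 10 flanking bases in lower case, PTBP1 at chr19:807859-807912 and PTBP2 at chr1:96806409-96806462, both plus strand):
PTBP1 exon: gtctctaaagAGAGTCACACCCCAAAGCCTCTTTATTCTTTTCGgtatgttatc
PTBP2 exon: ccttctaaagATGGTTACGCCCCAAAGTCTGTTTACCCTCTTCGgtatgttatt
Of the 34 exon bases 25 are identical (73.5%). Inclusion in PTBP1, between its main neighbouring exons, was 99.1, 98.7 and 99.1% in DMSO and 97.3, 96.9 and 97.7% in Chelator, a small step with no overlap (limma adjusted p = 0.0857). In PTBP2 it was 75.9, 73.3 and 71.4% against 73.4, 73.4 and 62.7%, with overlapping groups (limma adjusted p = 0.702). The intron kept in PTBP1-215, the retained-intron transcript whose share rose, is 83 bases long and is printed with its GT and AG ends in capitals and 10 exon bases on each side (chr19:804199-804301, plus strand):
PTBP1 intron: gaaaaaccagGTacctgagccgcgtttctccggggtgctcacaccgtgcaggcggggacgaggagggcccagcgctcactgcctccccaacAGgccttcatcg

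TARDBP has a 164-base coding exon whose skipping shifts the frame (chr1:11016834-11017017, plus strand, exon in capitals):
TARDBP exon: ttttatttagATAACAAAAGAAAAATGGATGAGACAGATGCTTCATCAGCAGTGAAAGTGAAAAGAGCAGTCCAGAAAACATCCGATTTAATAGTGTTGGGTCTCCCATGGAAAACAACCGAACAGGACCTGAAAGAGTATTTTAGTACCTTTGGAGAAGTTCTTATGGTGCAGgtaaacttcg
Its inclusion was 79.7, 82.1 and 73.0% in DMSO and 65.4, 65.9 and 69.5% in Chelator. All Chelator libraries were lower, and the third libraries were closest to each other (limma adjusted p = 0.202).

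MBNL1 and MBNL2 share a 54-base exon, a known target of the MBNL proteins themselves that carries part of the nuclear localization signal (exon in capitals, MBNL1 at chr3:152446694-152446767 and MBNL2 at chr13:97356786-97356859, both plus strand):
MBNL1 exon: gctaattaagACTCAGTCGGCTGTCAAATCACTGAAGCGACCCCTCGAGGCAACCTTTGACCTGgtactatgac
MBNL2 exon: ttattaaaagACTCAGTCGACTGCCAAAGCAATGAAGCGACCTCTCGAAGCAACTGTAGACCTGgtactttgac
The exons are identical at 45 of 54 bases (83.3%). In MBNL1 inclusion was 13.9, 12.3 and 11.0% in DMSO and 14.6, 20.7 and 21.9% in Chelator, with groups that just failed to overlap (limma adjusted p = 0.254). In MBNL2 it was 5.43, 11.3 and 7.61% against 12.7, 11.7 and 8.42%, with overlap (limma adjusted p = 0.571). The paralogs were thus called in opposite directions as gene totals, and neither passed the adjusted test in this exon. A 92-base exon of HNRNPH1 had the widest shift given here, from 77.1, 82.8 and 82.3% in DMSO to 48.8, 40.0 and 55.5% in Chelator, and missed the threshold narrowly (limma adjusted p = 0.0544). A 117-base exon of QKI, included at 73.9, 71.7 and 71.9% in DMSO, stood at 79.8, 78.4 and 78.6% in Chelator (limma adjusted p = 0.271).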

How the data were processed

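PolyA-selected RNA of K562 cells was sequenced from both ends in 3 DMSO and 3 Chelator libraries. The authors quantified transcripts with Salmon 1.10.2 (the submitters' processing notes) against hg38 transcripts, and deposited, for each transcript and library, the estimated count (expected count), the TPM and the effective length in bases. The division of reads among overlapping transcripts is part of that estimate. Transcripts were matched to GENCODE v44, and 433 transcripts, with 0.139 to 0.150% of counts, had no match and were not used.

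Estimated counts were summed per gene, rounded to whole numbers and tested with DESeq2 1.42.0 (Wald test, average transcript length as offset, genes with a total above 10 counts), with Benjamini-Hochberg adjustment over all genes. Shares of transcript classes and of single transcripts were tested on TPM-scaled counts with diffSpliceDGE of edgeR 4.0.16, where a class or transcript reached 10 counts in 3 or more libraries. Inclusion of skipped exons was tested with limma 3.58.1 on log2 of the ratio of including to excluding TPM, each with a pseudocount of 0.1 TPM. Normalized counts are corrected for depth and transcript length. The tests of gene totals (DESeq2 and edgeR), of shares (edgeR) and of skipped exons (limma) were also run on simulated data with known changes. The other steps, limma's diffSplice, the replicate block and the fits with 1 library left out were not. No source states that replicates were separate cultures, so p-values measure the spread between these samples. The 2 annotated MATR3 genes were summed.

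The members, the list of 51 other regulators, the markers and the exons were chosen with earlier results of these data known. All members are accounted for by family. Given in full were members past both thresholds, the 6 largest rises and falls among the others past the adjusted p, members with a called class share, with at most 2 called transcripts a gene, at most 10 called exons, and by name TFRC, HNRNPA1, HNRNPA2B1, HNRNPC, HNRNPDL, HNRNPH1, HNRNPU, PTBP1 to PTBP3, MBNL1 to MBNL3, TRA2A, TRA2B, TIA1, TARDBP, RBM39 and QKI. Called transcripts of genes without a called class, class shares that were not called, and exons that were not called were named after their values were seen. Sequences were read from the hg38 genome, and 17 of 17 transcripts rebuilt from it were identical to the annotated transcript sequences. Protein sequences were not used here. The values of 2 genes of the list of 51 are not reported here. Alternatives were edgeR, other filters and centring, no length offset, a replicate block, pseudogenes and readthrough genes added, transcripts of at least 500 bases, other pseudocounts, limma's diffSplice and leaving out each library; coding transcripts alone was added after the data had been seen.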

Additional observations from a re-analysis of the deposited data

How the results depend on the processing

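The count of 24 lower members ranged from 21 (edgeR) to 30 (no length offset), and from 21 to 26 when 1 library was left out. The 2 higher members became 4 with edgeR and with pseudogenes and readthrough genes added, 1 without a filter on low counts or centred on the mean log2 count, and 1 to 3 with 1 library left out; 1 member passed the doubling threshold upward in each of edgeR and coding transcripts alone (MBNL2) and with pseudogenes and readthrough genes added (HNRNPH2), and 0 to 1 with 1 library left out. Centring on the mean log2 count moved the members' median from −0.25 to −0.35, and that of all genes to −0.09. Higher class shares (5) became 10 with rounded estimated counts or limma's diffSplice and 2 to 5 with 1 library left out; lower ones (0) became 3 with rounded counts, 10 with limma, 1 at a minimum of 50 counts, 2 with transcripts of at least 500 bases and 0 to 2 with 1 library left out. Transcript shares went to 16 higher and 22 lower with limma, and to 3 to 8 higher and 2 to 6 lower with 1 library left out. Exon events with more inclusion became 5 at a pseudocount of 1 TPM, 0 at 0.01 TPM, 0 with transcripts of at least 500 bases and 0 to 0 with 1 library left out. Exon events with less inclusion became 7 at 1 TPM and 0 to 2 with 1 library left out. Direction turned for PTBP1 without the length offset (−0.307), HNRNPH2 with readthrough genes (2.18), HNRNPA2B1 (0.0381) and HNRNPC (0.0645) in coding transcripts alone, and for members near 0: HNRNPLL (0.0289) and TIAL1 (0.0201) in edgeR, EWSR1 centred on the mean (−0.0839), and PTBP2 without the offset (−0.232), centred on the mean (−0.101) and at the stricter filter (−0.00121). With 1 library left out, HNRNPA0 ranged from −0.115 to 0.0101, PTBP2 from −0.0659 to 0.0721, MBNL3 from −0.204 to 0.153, TIAL1 from −0.0562 to 0.0164 and EWSR1 from −0.0181 to 0.0502. The cause was not tested. In all, 545 of the members' values kept their direction and side of the threshold, 26 passed newly, 23 no longer passed and 21 turned.

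Whether the replicate numbers pair the libraries could not be settled, since all correlations were small and each group held 3 libraries. Deviations of same-numbered libraries correlated at −0.0149, 0.0838 and 0.0854. DMSO library 1 correlated best with Chelator library 3 (0.0353), whereas DMSO libraries 2 and 3 correlated best with the Chelator library of their own number. With the replicate block, 24 members were lower and 2 higher, with a median of −0.26 (TAF15 lost its call at adjusted p = 0.0889 and PTBP1 gained one at 0.0492), over all genes 8349 in place of 9259 were called, and class shares gave 3 higher (the NMD calls of HNRNPA1 and TARDBP were lost at adjusted p = 0.0689 and 0.0895), transcript shares 4 higher and 5 lower, and exons 0 more and 0 less included, with 0 called over all exons. Depth limits MBNL3 and PTBP2. The part of fragment length, which differed between the groups, in the shares of short or near-identical transcripts was not tested.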
